A study of Homo sapiens with 4 samples.

Results

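The histone cluster genes were the 71 genes of 33538 in both gene lists whose symbols open with HIST1H to HIST4H. They encode 6 linker histones (H1), 17 H2A, 18 H2B, 15 H3 and 15 H4 proteins, and 55 of them lie in the HIST1 group, 12 in HIST2, 3 in HIST3 and 1 in HIST4. The rule used the names alone and no measured value, but it was chosen with earlier results of these data known. mRNA was counted in single cells of Ishikawa, an endometrial adenocarcinoma line, and T-47D, a breast carcinoma line from a mammary ductal carcinoma, both cultured in hormone-depleted medium before the experiment. Each line received 10 nM 17beta-estradiol (E2), the ligand of the estrogen receptor, for 2, 4 or 8 h, and cells given the vehicle DMSO stood for 0 h. Cells of each time point were tagged with MULTI-seq barcodes, mixed, and sequenced as 1 library per line, so each time point was 1 culture and no test between time points was possible.

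Histone proteins package DNA into nucleosomes. H3 and H4 form the core tetramer, H2A and H2B join it as dimers, and H1 binds the linker DNA between nucleosomes. Most cluster genes are transcribed mainly in S phase, when newly copied DNA must be packaged, and their mRNAs typically end in a stem-loop bound by the protein SLBP rather than in a poly(A) tail. Some cluster genes can also make polyadenylated mRNA, which remains in cells that have left the cycle. The libraries were primed on poly(A), so the values below count only the histone mRNA that this priming captured, and the captured part of each gene's mRNA was not measured.

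The end of the mRNA is the feature that sets these genes apart, and it is shown for members whose captured levels are described below. A stem-loop was found in 59 of the 62 members present in the GENCODE 44 transcripts, near a transcript end in 58 of them and 1729 bases before the listed end in HIST2H2BE. The 16 bases of the stem-loop are in capitals with up to 5 transcript bases on each side.
HIST1H4C: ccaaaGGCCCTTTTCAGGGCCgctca
HIST1H1D: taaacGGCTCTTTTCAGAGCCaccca
HIST2H2AC: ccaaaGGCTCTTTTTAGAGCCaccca
HIST1H1C: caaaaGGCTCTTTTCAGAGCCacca
HIST1H2AC: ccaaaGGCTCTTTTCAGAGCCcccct
HIST1H2BC: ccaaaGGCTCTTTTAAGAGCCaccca
HIST1H4H: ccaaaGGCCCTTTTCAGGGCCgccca
The form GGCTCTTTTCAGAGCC was found in 35 members, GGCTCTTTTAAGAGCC in 9 and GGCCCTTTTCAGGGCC in 8. HIST1H4C and HIST1H4H carried the same stem-loop and differed widely in their spread over cells, described below. In 42 members every listed transcript ended at the stem-loop, 16 members also had a transcript with another end, 4 had only transcripts with another end, and 9 were not in the table.

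A total of 4613 Ishikawa cells (776, 1480, 892 and 1465 at 0, 2, 4 and 8 h, of 9077 barcodes called to 1 time point) and 4626 T-47D cells (1525, 1207, 1341 and 553, all those called) met the cell limits of the study, with 12927799 to 33175309 UMIs (unique molecular identifiers, 1 for each captured molecule) per time point and a median of 19121.5 to 22576 UMIs per cell. The called Ishikawa barcodes were 2032, 2651, 1701 and 2693 at 0, 2, 4 and 8 h. The limits thus kept the smallest share at 0 h, the baseline of each Ishikawa fold change. The T-47D 8-h pool had the fewest cells and the highest median. The libraries shared 5 of these cell barcodes. Ishikawa cells held the endometrial markers PAX8 (108 CPM) and SOX17 (54.1 CPM), with 1 UMI of GATA3. T-47D cells held GATA3 (484 CPM) and TRPS1 (521 CPM), with 0 UMIs of PAX8 and SOX17. Of the 4 markers of other cells, PTPRC had 1 and 5 UMIs and PECAM1 had 3 and 0 in Ishikawa and T-47D, while COL1A1 stood at 22.7 and 6.24 CPM and COL3A1 at 1.16 and 0.0782 CPM.

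Histone mRNA was captured at 611, 611, 523 and 640 CPM (UMI counts scaled to a total of 1000000) in the 0-h, 2-h, 4-h and 8-h pools of Ishikawa, and at 1204, 1189, 1194 and 1238 CPM in T-47D. The summed level was higher in T-47D than in Ishikawa at each time point. Line and library cannot be told apart. H1 genes held 42.8% of histone UMIs in Ishikawa, followed by H2A (28.2%), H2B (13.1%), H4 (11.7%) and H3 (4.27%). In T-47D the H4 genes held 33.9% and the H1 genes 30.6%, with 19.7% in H2A, 13.9% in H2B and 1.91% in H3.

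The minimum level, 10 CPM as an average of the 4 time points, was reached by 11 members in Ishikawa (of 7885 genes) and 15 in T-47D (of 7440 genes), 18 members in either line and 8 in both. The 60 members under this level in Ishikawa held 10.6% of histone UMIs and the 56 in T-47D held 6.29%. In kept cells, 24 members had 0 UMIs in Ishikawa and 12 in T-47D. Each UMI counts 1 molecule at its 3′ end, so levels were not divided by gene length, but capture can differ between genes. HIST2H4A and HIST2H4B, HIST2H3A and HIST2H3C, and HIST2H2AA3 and HIST2H2AA4 are near-identical copies whose reads could be split or dropped, so their values are uncertain.

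HIST1H1C, a linker histone gene on the polyadenylated list, was captured at 208, 195, 167 and 205 CPM at 0, 2, 4 and 8 h in Ishikawa. In T-47D it stood at 349, 316, 319 and 289 CPM. It was the histone gene with the most UMIs in Ishikawa at every time point, and HIST1H4C, an H4 gene, passed it in T-47D at 8 h only. HIST1H4C stood at 277, 308, 307 and 381 CPM in T-47D, and in Ishikawa it had 112, 598, 82 and 113 UMIs, under the 10 CPM minimum. The next T-47D genes were HIST1H2AC (H2A; 137, 131, 128 and 122 CPM), HIST1H4H (H4; 78.8, 76.3, 77.2 and 72.0 CPM) and HIST1H2BC (H2B; 55.0, 47.5, 47.7 and 46.0 CPM). In Ishikawa HIST1H1C was followed by HIST2H2AC (H2A; 88.8, 87.8, 83.5 and 95.8 CPM) and HIST1H1E (H1; 61.9, 65.2, 54.3 and 67.1 CPM). These 2 were low in T-47D, at 14.98 to 17.1 CPM and 10.7 to 11.99 CPM.

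**Figure D1:**
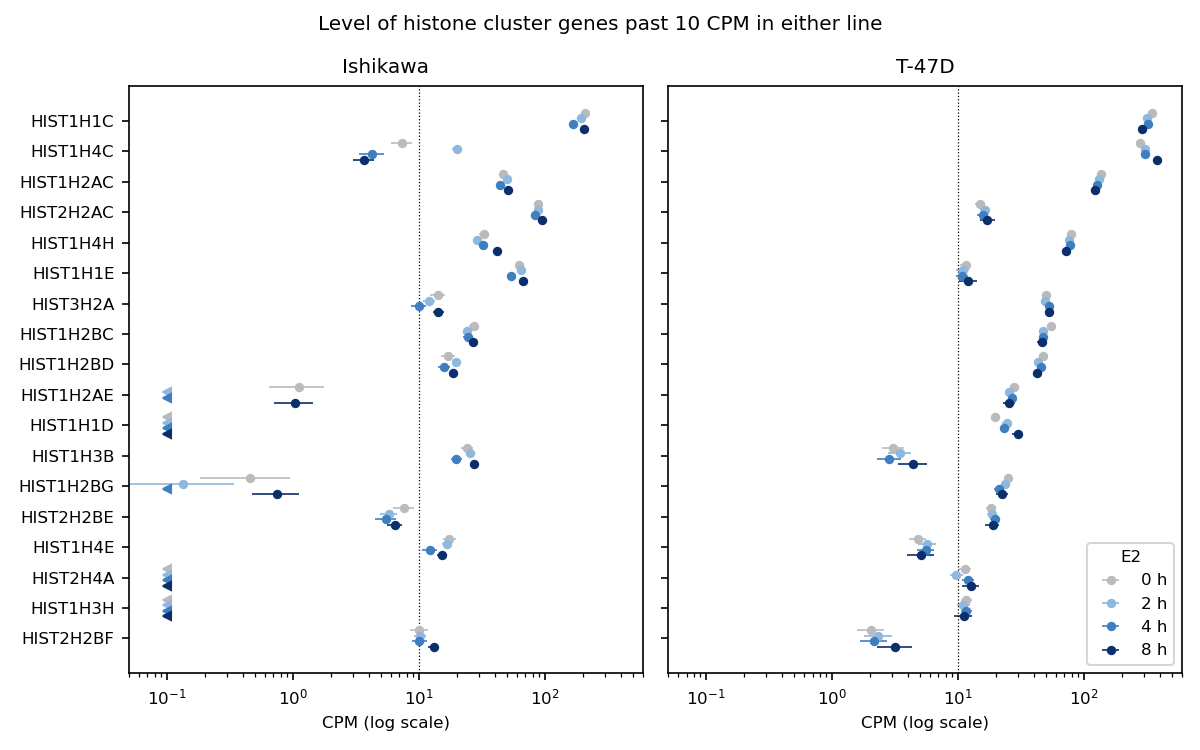
Level of each member past 10 CPM in either line, in CPM on a log axis, with 1 point per time point and its 95% Poisson interval, and left-pointing marks at 0.1 for values below it. The dotted line is 10 CPM. HIST1H4C stands at 277 to 381 CPM in T-47D and at or under 20.02 CPM in Ishikawa.

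Several members were captured in 1 line only. HIST2H4A (H4) and HIST1H3H (H3) were above 10 CPM in T-47D with 0 UMIs in every Ishikawa barcode, which allows up to 0.0314 CPM in the kept cells. That was 2 of 15 members, against 0.283% of all genes at that level. HIST2H4A stood at 11.4, 9.73, 12.1 and 12.7 CPM in T-47D and HIST1H3H at 11.6, 11.01, 11.7 and 11.1 CPM. At 1 CPM or more the same held for 6 of 36 members, against 0.685% of all genes, and the others were HIST2H4B, HIST1H2AI, HIST1H2AJ and HIST1H1B. HIST1H1D, a linker histone gene, had 2378 UMIs in T-47D and 0 in Ishikawa kept cells, with 3 in all Ishikawa barcodes. In the other direction, HIST1H2AG (H2A) had 436 UMIs in Ishikawa and 0 in T-47D, which made it the single such member of 29 at 1 CPM or more (1.43% of all genes), and 0 of 11 members met 10 CPM (0.507% of all genes). Other members had a level in both lines that differed widely, such as HIST1H3B (H3), at 24.2, 25.6, 19.9 and 27.5 CPM in Ishikawa and under the minimum in T-47D. Since each line was 1 library, a difference between lines has counting error only.

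The first question was whether E2 changed histone mRNA. Values are log2 fold changes of CPM plus 1 against 0 h of the same line, with 95% intervals of the plain ratio that cover counting error only. The T-47D total moved by −0.02 at 2 h, −0.01 at 4 h and 0.04 (0.01 to 0.07) at 8 h. The Ishikawa total moved by 0.00 at 2 h, −0.22 (−0.26 to −0.18) at 4 h and 0.07 (0.03 to 0.10) at 8 h. The total thus stayed within the 1.5-fold limit used below in both lines, and the lower Ishikawa value at 4 h rested on the cell limits, since it was 0.036 over every called barcode. At 4 h each Ishikawa class was lower than at 0 h, with −0.29 for H1, −0.14 for H2A, −0.17 for H2B, −0.24 for H3 and −0.22 for H4.

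The nearly level T-47D total held opposite movements. The 6 genes listed as making polyadenylated mRNA (HIST1H1C, HIST1H2AC, HIST1H2BC, HIST1H2BD, HIST1H2BK and HIST2H2BE) summed to 610, 562, 565 and 524 CPM at 0, 2, 4 and 8 h. That was −0.22 (−0.26 to −0.18) at 8 h. The 65 others summed to 593, 627, 629 and 714 CPM, 0.27 (0.23 to 0.30) at 8 h, so the off-list sum was the lower at 0 h and the higher at all E2 times. With a lower upper limit on UMIs per cell, 1.5 times the median of the line, the 8-h values were −0.23 and 0.14, and the T-47D total turned to −0.042. By class, H4 moved from 379 to 407, 409 and 478 CPM (0.33 at 8 h), while H1 moved by −0.18 and H2B by −0.13. Much of the off-list movement was HIST1H4C, which went from 277 CPM at 0 h to 381 CPM at 8 h. The total of all members without that gene, which includes the polyadenylated list, stood at −0.11 at 8 h.

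No member passed 1.5-fold against 0 h in either line at any time point. Among all genes past 10 CPM, the shares past it in Ishikawa were 0.786% higher and 0.659% lower for 2 h, 0.634% higher and 0.621% lower for 4 h, and 0.812% higher and 0.469% lower for 8 h. In T-47D they were 1.22% higher and 0.417% lower for 2 h, 1.33% higher and 0.363% lower for 4 h, and 2.34% higher and 0.726% lower for 8 h. With so few members, 0 was near these backgrounds. Of the 11 Ishikawa members, 5, 1 and 8 stood above 0 at 2, 4 and 8 h, beside 45.5%, 46.2% and 50.3% of all genes. Of the 15 T-47D members it was 4, 7 and 7, beside 52%, 47.2% and 51.9%.

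The members that moved farthest at 8 h in T-47D were HIST1H1D and HIST1H4C. HIST1H1D stood at 19.8, 24.3, 23.3 and 29.8 CPM, with log2 fold changes of 0.28, 0.22 and 0.56 (0.40 to 0.77). HIST1H4C had 0.15, 0.15 and 0.46 (0.41 to 0.51). Both were above 0 h at all E2 times, and these were the 2 of 15 members higher by at least 0.322 (log2) at 8 h, a lower limit than 1.5-fold that 7.11% of all genes passed. With the lower upper UMI limit they stood at 0.40 and 0.32. The farthest below 0 were HIST1H1C, at −0.14, −0.13 and −0.27 (−0.32 to −0.22), and HIST1H2BC, at −0.25 at 8 h. HIST1H2AC stood at −0.16.

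In the same T-47D cells the S phase marker PCNA, the sliding clamp of replication, moved from 55.1 to 58.4, 60.2 and 72.5 CPM (0.39 at 8 h). TOP2A, the topoisomerase that separates sister DNA and peaks in G2 and M, stood at 123, 117, 123 and 133 CPM (0.12). Fewer cells with histone mRNA and less mRNA per cell cannot be told apart in such sums, so the cells themselves are described below. The part of the cell cycle in the 8-h values was not tested.

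Ishikawa members moved less evenly. HIST1H4E (H4) stood at 17.5, 16.6, 12.2 and 15.2 CPM and HIST3H2A (H2A) at 14.1, 12.1, 9.97 and 14.3 CPM, with −0.48 and −0.46 at 4 h. These were the 2 of 11 members lower by at least 0.322 (log2) at 4 h, beside 4.63% of all genes, and at 8 h both lay near their 0-h level again. HIST2H2BF (H2B), at 10.1, 10.2, 10.1 and 13.1 CPM, was the 1 member higher by at least 0.322 at 8 h (0.35, 0.11 to 0.66), beside 3.89% of all genes. HIST1H4H stood at 33.1, 28.9, 32.5 and 41.6 CPM, 0.32 (0.18 to 0.48) at 8 h and just under that limit. HIST1H1C was −0.32 at 4 h and back near 0 h at 8 h. Ishikawa PCNA stood at 142, 142, 131 and 125 CPM and TOP2A at 159, 155, 125 and 115 CPM (−0.46 at 8 h), so TOP2A stood below its 0-h value at 8 h while the histone total did not.

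**Figure D2:**
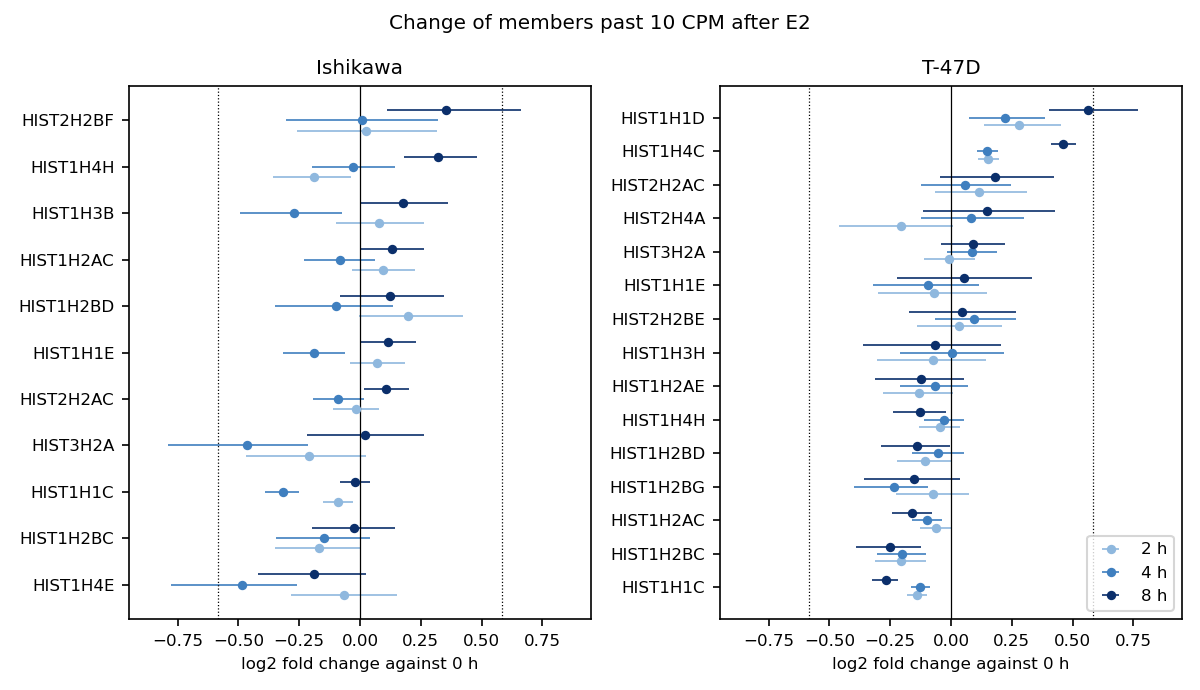
Log2 fold change against 0 h (x axis) of each member past 10 CPM, in order of its 8-h value, with 1 point per E2 time point and the 95% interval of the plain ratio. Dotted lines mark 1.5-fold. No point passes them, and HIST1H1D and HIST1H4C at 8 h in T-47D are the farthest to the right there, at 0.56 and 0.46.

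Other members were given by range. The remaining T-47D members past 10 CPM were HIST3H2A (49.4 to 52.8 CPM), HIST1H2BD (42.5 to 46.99 CPM), HIST1H2AE (25.5 to 28.0 CPM), HIST1H2BG (21.05 to 24.96 CPM) and HIST2H2BE (18.2 to 19.5 CPM). Those left in Ishikawa were HIST1H2AC (44.3 to 51.5 CPM), HIST1H2BC (24.3 to 27.4 CPM) and HIST1H2BD (15.9 to 19.8 CPM). Of the members under 10 CPM, the 3 with the most UMIs in T-47D were HIST1H1B, a linker histone gene, with 882 UMIs (256, 214, 275 and 137 over the time course), HIST1H2BN with 765 in all and HIST1H2BH with 640. In Ishikawa they were HIST1H4C with 905, HIST2H2BE with 594 and HIST1H2AG with 436. A single cell can make up such a sum. In Ishikawa, 1 cell held 39 of the 40 UMIs of HIST1H2AA and 1 cell held 31 of the 50 of HIST1H2AE.

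The next question was how histone mRNA was spread over cells. To compare cells at 1 depth, each was thinned to 10000 UMIs, and 90 Ishikawa cells and 0 T-47D cells below that depth were left out. HIST1H1C was widespread in T-47D, with at least 1 UMI in 87.1% of thinned cells (95.9% unthinned), and the top 10% of cells by its count held 29.2% of its UMIs. HIST1H4C had a UMI in 45.0% of cells (65.5% unthinned), but the top 10% held 82.9% of its UMIs. A gene at the same high level in every cell would give 10%, and sparse counts give more. HIST1H4C was concentrated in a minority of cells while also present at low counts in many. HIST1H2AC was found in 68.7% of cells (30.5% of UMIs in the top 10%) and HIST1H4H in 47.02% (39.3%). HIST1H4H and HIST1H4C were therefore found in like shares of cells with very unlike concentration. For comparison the top 10% held 57.1% of PCNA and 90.6% of TOP2A UMIs. No cell type in either library should lack these genes, so the level set by free RNA could not be measured and low counts of HIST1H4C cannot be told apart from it.

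Ishikawa showed another pattern. HIST1H1C had a UMI in 60.9% of thinned cells (75.6% unthinned) with 47.2% of its UMIs in the top 10%, HIST2H2AC in 34.6% with 59.7%, and HIST1H1E in 27.2% with 63.3%. HIST1H1C was thus more concentrated in Ishikawa than in T-47D at the same depth per cell, though its level was lower there, and a lower level by itself gives sparser counts. PCNA (35.2%) was less and TOP2A (59.5%) about as concentrated as HIST2H2AC. HIST1H4C was found in 1.13% of Ishikawa cells.

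HIST1H4C divided T-47D cells into a small high group and a large low one. Unthinned, 245 cells (5.30%) had at least 10 UMIs and held 80.9% of the gene's UMIs, with up to 297 in 1 cell. A further 2783 cells (60.2%) had 1 to 9 UMIs and 1598 had 0. The high cells stood at 324 CPM for PCNA and 1094 CPM for TOP2A, and the cells with 0 UMIs at 30.2 and 32.4 CPM. The summed CPM of all other histone genes was 1612 in the high cells, 784 in those with 1 to 9 UMIs and 954 in those with 0. The high cells also had more UMIs, with a median of 28564 against 21430 in cells with 1 to 9.

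The share of high cells was followed over the time course in thinned cells, with a high cell set at 5 or more UMIs of HIST1H4C. It was 4.66% (71 of 1525 cells, exact binomial 95% interval 3.65 to 5.84) at 0 h, 5.14% at 2 h, 5.37% at 4 h and 7.05% (39 of 553 cells, 5.06 to 9.52) at 8 h. The level within high cells was 3811, 3821, 3831 and 3610 CPM, and in the rest 61.1, 67.0, 56.6 and 67.1 CPM. The 8-h pool was thus higher in the share of high cells and not in the level per high cell, and the 0-h and 8-h intervals of that share overlapped. HIST1H1D had the same form, with 3 or more UMIs in 2.03%, 2.24%, 2.16% and 2.89% (1.66 to 4.66) of cells and 610, 574, 624 and 625 CPM in them. TOP2A at 5 or more UMIs was found in 5.31%, 5.55%, 5.52% and 5.79% of cells, and PCNA at 3 or more UMIs in 4.46% at 0 h and 7.05% at 8 h. HIST1H1C had 10 or more UMIs in 4.72% (3.71 to 5.91), 2.49%, 3.88% and 2.53% (1.39 to 4.21) of cells. Its share was lower at 8 h than at 0 h, but it was about as low at 2 h, and the 0-h and 8-h intervals overlapped.

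**Figure D3:**
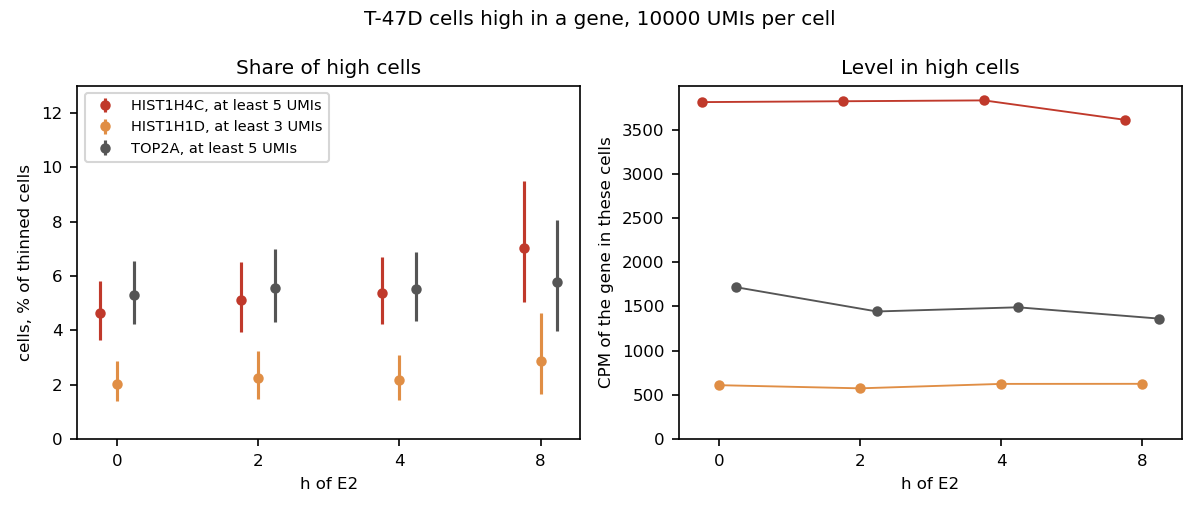
T-47D cells thinned to 10000 UMIs, by hours of E2. Left, share of cells (%) at or over the stated UMI count of a gene, with the exact binomial 95% interval. Right, CPM of the gene within those cells. The share for HIST1H4C is 4.66% at 0 h and 7.05% at 8 h, while its level in these cells stays between 3610 and 3831 CPM.

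In Ishikawa the few HIST1H4C UMIs lay in very few cells. Of 4613 cells, 77 (1.67%) had a UMI, and 17 cells with 10 or more held 86.3% of the total. The 2 highest cells, both at 2 h, had 171 and 152 UMIs, and the 2-h value of 20.02 CPM was 9.22 CPM without them, so no direction was read from the HIST1H4C values of this line. The 17 cells stood at 1808 CPM for other histone genes, against 583 CPM in cells with 0. For TOP2A the values were 384 and 134 CPM, and for PCNA 126 and 134 CPM, so PCNA was not higher. The cell with 39 HIST1H2AA UMIs was 1 of the 17. By time point the 17 cells were 4, 8, 1 and 4. Of them, 12 lay in the top 20% of cells by G2/M share defined below, and 15 remained under the lower upper UMI limit. HIST1H1C stood at 635 CPM over the 17 cells and at 356 CPM over the 912 cells of that bin that were not among them. HIST1H1E stood at 191 and 143 CPM, HIST1H2AC at 119 and 72.3 CPM and HIST1H4H at 119 and 67.9 CPM. Of the members past 10 CPM, only HIST2H2AC (191 and 193 CPM) and HIST1H2BC (39.7 and 50.5 CPM) were not higher. The HIST1H2BC value was 16 UMIs in the 17 cells. HIST2H2BF (13 UMIs) and HIST1H2BD (11 UMIs), counted as higher, rested on fewer. No direction was read from any of them. A line with almost no captured HIST1H4C thus held a small number of cells with HIST1H4C counts in the range of the high T-47D cells. PCNA was higher in those T-47D cells than in T-47D cells with 0, but not in these 17 Ishikawa cells.

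The relation to the cell cycle was described by Spearman's rho across thinned cells with PCNA and TOP2A, computed in each time point (759, 1443, 879 and 1442 Ishikawa cells; 1525, 1207, 1341 and 553 T-47D cells) and averaged. Cells share their library and, after thinning, their depth, and counts are sparse, so the values are a description. In Ishikawa 9 of 11 members had a mean rho of at least 0.1 with TOP2A, beside 6.93% of genes past 10 CPM, and 2 of 11 with PCNA, beside 3.65%. HIST1H1E was highest with TOP2A (0.41), followed by HIST2H2AC (0.34), HIST1H3B (0.33) and HIST1H1C (0.28). HIST1H2BD and HIST3H2A were at −0.00 and −0.01. With PCNA the highest were HIST1H1E (0.14) and HIST2H2AC (0.13), so these members followed TOP2A more closely than PCNA in this line.

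In T-47D the members fell apart. HIST1H1D (0.28 with PCNA, 0.39 with TOP2A), HIST1H4C (0.23, 0.29), HIST2H2AC (0.17, 0.26) and HIST1H1E (0.17, 0.26) reached 0.1 with both genes. These were 4 of 15 members, beside 4.73% of genes with PCNA and 6.33% with TOP2A. The other 11 were below 0 with PCNA and at 0.01 or below with TOP2A, and HIST1H2AC (−0.11, −0.19) was lowest with both. HIST1H4H was next with TOP2A (−0.13) and HIST2H2BE with PCNA (−0.089). With Pearson's r on log values of unthinned cells these 4 members stood higher, HIST1H4C at 0.56 with PCNA and 0.66 with TOP2A, and in Ishikawa HIST1H3B passed 0.1 with PCNA (0.13). HIST1H1C stood at −0.06 and −0.07 in T-47D, against 0.06 and 0.28 in Ishikawa. HIST1H1B, under the minimum, was at 0.28 and 0.40.

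**Figure D4:**
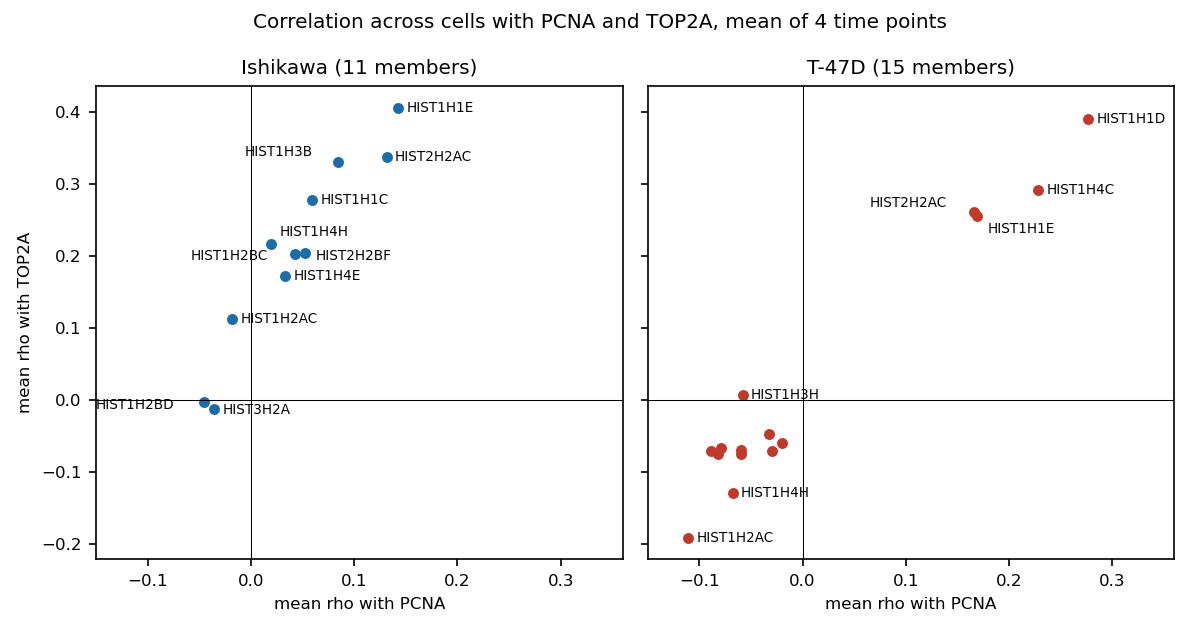
Mean over 4 time points of Spearman's rho across thinned cells with PCNA (x axis) and TOP2A (y axis), 1 point per member past 10 CPM. In T-47D 4 members lie at 0.26 to 0.39 with TOP2A and 11 at or near 0 and below, whereas in Ishikawa 9 of 11 lie above 0.1.

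Members also correlated with each other along this division. In T-47D, HIST1H1D was at 0.42 with HIST1H1E, 0.37 with HIST2H2AC and 0.31 with HIST1H4C. With HIST1H4C, 3 of the 14 other T-47D members past 10 CPM reached 0.1, beside 4.81% of genes, and 0 of 11 in Ishikawa, beside 0.0127%. HIST1H1C was at 0.29 with HIST1H4H and at −0.14 with HIST1H4C, and HIST1H4C and HIST1H4H, 2 genes for H4, were at −0.15. In Ishikawa the pairs HIST2H2AC and HIST1H1E (0.48), HIST1H3B and HIST1H1E (0.44) and HIST1H1C and HIST1H1E (0.41) led, so HIST1H1C was on the same side as HIST1H1E there. Outside the cluster genes, those most like HIST1H4C in T-47D were BIRC5, a mitotic regulator (0.35), PCLAF, a PCNA-binding factor (0.35), MYBL2, a transcription factor of cell cycle genes (0.35), PBK, a mitotic kinase (0.34), and TK1, the thymidine kinase of DNA precursor synthesis (0.34). In Ishikawa the highest were DHRS2 (0.10), KIF20B (0.09), CCNB1 (0.09), CEP55 (0.08) and MKI67 (0.07), from very sparse counts.

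The end of the listed transcripts was set beside these values. In T-47D, 6 members past 10 CPM had stem-loop ends only, and HIST1H4C, HIST1H1D, HIST1H1E and HIST2H2AC among them were the 4 with a rho of at least 0.1 with TOP2A. HIST1H1C and HIST1H2AE, also with stem-loop ends only in the table, were below 0. Of the 7 members that also had another end, 0 reached 0.1 and 6 were below 0, with a median of −0.08. In Ishikawa 4 of 4 members with stem-loop ends only and 4 of 6 with another end as well reached 0.1. The Ishikawa medians were 0.31 for stem-loop ends only and 0.16 with another end as well, so they differed in the direction of the T-47D medians, 0.26 and −0.08. The difference between lines was not tested. HIST1H1C counted as stem-loop only although it is on the polyadenylated list, so the table does not hold every known end.

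Cells of each time point were then ranked by the share of their UMIs in a list of G2/M genes, or of S phase genes, and cut into bins of 20% of cells. The lists hold no member, TOP2A and PCNA belong to them, and a bin is a range of a score and not a phase. From the bottom to the top bin of G2/M share in T-47D, HIST1H4C went from 47.1 to 1239 CPM, a ratio of 26.3 (21.6 to 33.8 over the 4 time points). HIST1H1D went from 2.17 to 102 CPM (47.003), HIST1H1E from 4.05 to 38.9 CPM (9.59) and HIST2H2AC from 6.18 to 50.6 CPM (8.20). These were 4 of 15 members higher by 1.5-fold, beside 9.58% of all genes. The H1 gene HIST1H1B, under the minimum, went from 0.148 to 39.2 CPM.

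On the other side, 4 of 15 T-47D members were lower by 1.5-fold, beside 1.97% of all genes. They were HIST2H2BE (0.51), HIST1H2BG (0.55), HIST1H2AC, from 148 to 83.6 CPM (0.57), and HIST1H4H, from 90.5 to 52.5 CPM (0.58). HIST1H1C went from 369 to 272 CPM (0.74), lower in the top bin at 4 of 4 time points. HIST1H2BD (0.66), HIST3H2A (0.72), HIST1H3H (0.78), HIST1H2BC (0.82), HIST1H2AE (0.89) and HIST2H4A (1.11) were within the limits. HIST1H2BD was so only because 1 CPM was added to both values for the limit and not for the ratios given here. Summed over all members the level went from 971 to 2202 CPM, and without HIST1H4C from 924 to 964 CPM, so the difference of the sum was that of 1 gene. These values are shares of UMIs, and UMIs per cell can differ between bins. The T-47D cells high in HIST1H4C and TOP2A had a median of 28564 UMIs, against 19541.5 in cells with 0 HIST1H4C UMIs. A lower CPM in the top bin was therefore not read as fewer molecules per cell.

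In Ishikawa 9 of 11 members were higher in the top bin by 1.5-fold, beside 10.5% of all genes, and 0 were lower, beside 3.06%. HIST1H3B went from 1.43 to 62.9 CPM (43.9), HIST1H1E from 10.0 to 144 CPM (14.3) and HIST2H2AC from 22.03 to 192 CPM (8.73). HIST1H1C went from 106 to 362 CPM, 3.42 (2.62 to 4.25 over the time points). As a share of UMIs this was the opposite direction to T-47D, where the ratio was 0.74. HIST1H4H (4.26) and HIST1H2AC (1.77) were also higher here and lower in T-47D. HIST2H2BF (9.97), HIST1H2BC (4.81) and HIST1H4E (3.43) were the others, while HIST3H2A (0.98) and HIST1H2BD (0.95) were level. The sum went from 272 to 1178 CPM. These directions held at all 4 time points in each line for HIST1H1C, HIST1H2AC and HIST1H4H, with 1 library per line. The top bin began at 0.553% to 0.620% of UMIs in Ishikawa and at 0.253% to 0.304% in T-47D. A bin thus did not cover the same range of the score in both lines, and its part in the contrast was not tested.

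**Figure D5:**
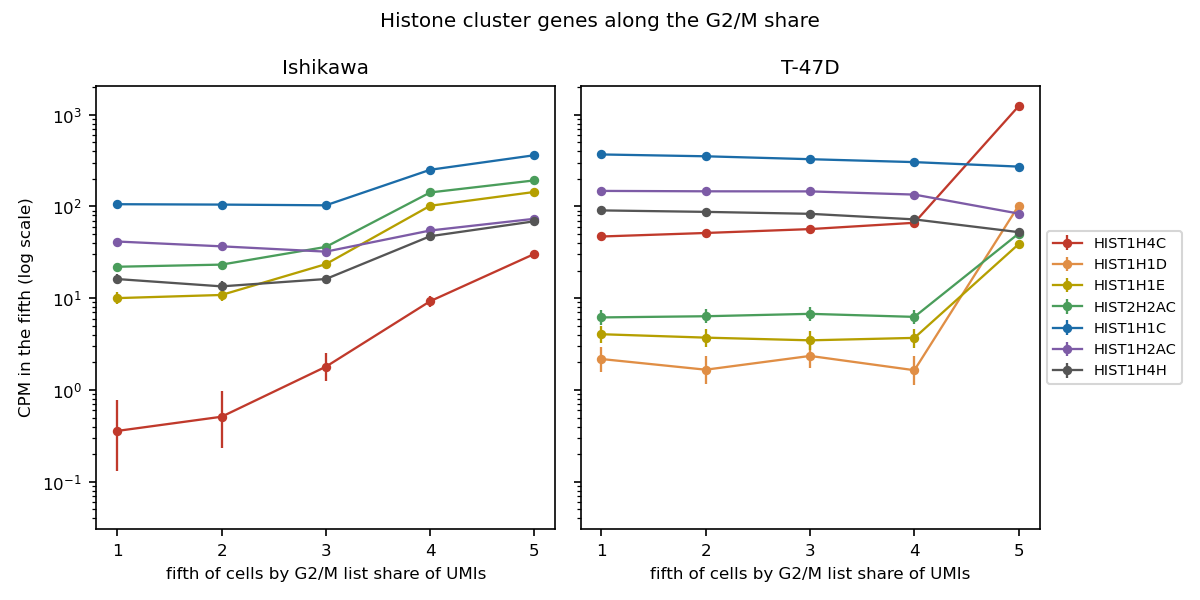
CPM on a log axis of 7 members in bins of 20% of cells ranked by the share of UMIs in G2/M list genes (1 is lowest and 5 highest), pooled over time points, with 95% Poisson intervals. From the lowest to the highest bin of T-47D, HIST1H4C goes from 47.1 to 1239 CPM and HIST1H1D from 2.17 to 102 CPM. HIST1H1C goes from 369 to 272 CPM in T-47D and from 106 to 362 CPM in Ishikawa.

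Bins of S phase share gave a like picture, but in T-47D they were not separate evidence. There TOP2A had a top-to-bottom ratio of 59.7 over bins of G2/M share and 54.3 over bins of S phase share. In Ishikawa these ratios were 55.4 and 3.60. In T-47D HIST1H4C went from 47.8 to 1219 CPM and HIST1H1D from 1.98 to 99.97 CPM, and 4 of 15 members were higher and 4 lower, beside 9.64% and 1.07% of all genes. In Ishikawa 8 of 11 were higher and 1 lower, beside 12.7% and 1.5%, and HIST1H1C went from 108 to 307 CPM. The top bin of G2/M share in T-47D held HIST1H4C at 1115, 1256, 1238 and 1506 CPM over the time course and HIST1H1D at 88.7, 107, 102 and 127 CPM. Both were highest at 8 h within that bin too. The bin itself began at a higher G2/M share of UMIs at 8 h (0.304%) than at 0 h (0.253%), and its part in these values was not tested.

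Noise was measured in the manner of the study, as the residual of log2 of the coefficient of variation plus 1 on the mean, with the top 20% of genes in each of 10 bins of mean called High. Unlike in the study, the fit held the genes past 10 CPM only and the bins were set in each line and time point. Of 15 T-47D members, 12, 14, 14 and 14 were High at 0, 2, 4 and 8 h, and 10, 11, 11 and 13 in thinned cells, beside 20% of all genes by construction. Of 11 Ishikawa members it was 11, 10, 10 and 11, and 11 at each time point in thinned cells. HIST1H4C ranked 2, 3, 2 and 3 from the top of 7440 genes in T-47D and HIST1H1D 11, 16, 12 and 8. HIST1H1C ranked 256 to 303 in T-47D and 33 to 78 of 7885 in Ishikawa. Most members thus varied between cells more than genes of like mean in both lines. HIST2H4A was an exception in T-47D, where it was not High at any time point.

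Genes that work on histones and their mRNA were described by lists. Among 31 S phase genes past 10 CPM in T-47D the median was 0.46 at 8 h, and 11 were higher by 1.5-fold, from UBR7 (−0.03) to DTL, a ubiquitin ligase adaptor of S phase (1.03). The G2/M list had a median of 0.16 with 1 of 40 higher, from CCNB2, a mitotic cyclin (−0.17), to TACC3, a spindle protein (0.59). The median of all genes was 0.01, and that of the 15 cluster genes −0.07. For 8 genes of histone mRNA synthesis and processing it was 0.12 with 0 past 1.5-fold, from LSM10, of the U7 particle that cuts histone mRNA (−0.06), to SLBP, the stem-loop binding protein (0.28). The 12 histone chaperones had 0.10 with 0 past the limit, from NAP1L1 (−0.10) to CHAF1A of the replication-coupled chaperone CAF-1 (0.48). The 10 replacement histone genes, which are made outside S phase too, had 0.01 with 0 past it, from H2AFY2 (−0.04) to H2AFX (0.29). The 5 polyadenylated list genes past the minimum had −0.16, from HIST1H1C to HIST2H2BE (0.05).

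In Ishikawa the lists moved little or the other way. At 8 h the S phase median was −0.01 with 0 of 40 past 1.5-fold, from MCM5, of the replicative helicase (−0.27), to UNG, a DNA repair glycosylase (0.30). The G2/M median was −0.22 with 0 of 50, from CENPE, a kinetochore motor (−0.48), to RANGAP1 (0.17). The medians of all genes and of the cluster genes were 0.00 and 0.11. Processing genes had 0.06, from CPSF3, the nuclease that cuts pre-mRNA (−0.20), to CSTF2 (0.28), and chaperones −0.01, from ASF1B (−0.22) to NAP1L4 (0.37). Replacement histones had −0.08, from H1F0, a linker histone of resting cells (−0.54), to H2AFX (0.17), and the 4 polyadenylated list genes past the minimum had 0.05, from HIST1H2BC (−0.03) to HIST1H2AC (0.13). At 4 h the cluster genes had −0.15 and the G2/M list −0.20, with −0.01 for all genes.

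Promoters were read because HIST1H1C and HIST1H1D, both linker histone genes on chromosome 6, differed in opposite directions along the G2/M share in T-47D and at 8 h. RefSeq promoters of GRCh38.p14, 250 bases before to 50 after the gene start, matched 64 of 71 members. The H1 promoters below are written 5′ to 3′ on the minus strand, with motifs in capitals.
HIST1H1C, chr6:26056421-26056720: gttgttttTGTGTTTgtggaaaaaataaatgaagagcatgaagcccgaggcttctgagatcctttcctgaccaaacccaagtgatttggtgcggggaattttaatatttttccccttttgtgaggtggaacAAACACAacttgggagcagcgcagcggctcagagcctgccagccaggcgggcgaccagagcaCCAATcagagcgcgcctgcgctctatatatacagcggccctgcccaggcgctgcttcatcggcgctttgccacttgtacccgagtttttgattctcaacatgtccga
HIST1H1D, chr6:26234938-26235237: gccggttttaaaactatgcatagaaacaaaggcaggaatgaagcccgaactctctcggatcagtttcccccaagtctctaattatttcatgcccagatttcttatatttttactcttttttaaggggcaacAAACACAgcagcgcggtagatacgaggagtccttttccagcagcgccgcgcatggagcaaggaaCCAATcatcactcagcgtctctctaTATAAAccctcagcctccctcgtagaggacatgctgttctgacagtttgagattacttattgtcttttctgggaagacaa
Both held the H1 box AAACACA at −119 from the start and CCAAT at −57 and −55, so the promoters had these elements in common. HIST1H1C had a further H1 box on the other strand (TGTGTTT, farther upstream) and HIST1H1D had TATAAA at −30. HIST1H1C held TATATATA downstream of its CCAAT, a run that the exact search for TATAAA did not count. With both strands read, AAACACA was in 6 of 6 H1 promoters (5.64% of 35116 promoters). TATAAA was in 43 of 64 members (11.5% of all) and CCAAT in 54 (34.6%), which was 3 of 13 H4 and all others. The octamer ATTTGCAT was in 24 (1.77%), of which 11 were H2A and 12 H2B genes. Windows of neighbouring members can overlap, so 1 site can count for 2 members. The octamer of HIST2H2BE (−46) and that of HIST2H2AC (−197) were 1 site, and HIST1H3D and HIST1H2AD had the same window. The counts are thus of members and not of separate sites. The palindromic estrogen response element, GGTCA and TGACC spaced by 3 bases, was in 0 of 64 (0.057% of all). A match is a run of letters and was not tested as a site.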

How the data were processed

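Deposited UMI counts per gene and barcode came from Cell Ranger 3.1.0 on hg38, per the labels and the submitters' notes, with 10x 3′ libraries. The authors assigned barcodes to time points from MULTI-seq tags, and those calls were used. Doublet calls (1906 Ishikawa, 1442 T-47D) and barcodes with no call (4002, 12120) did not enter, and no further doublet caller was run. The study's cell limits were applied. In Ishikawa they were 8500 and 35000 UMIs, 2700 and 6000 genes, and a mitochondrial share under 7%. In T-47D they were 7500 and 40000 UMIs, 1500 and 6000 genes, and under 20%. The number of unused columns was 0.

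UMIs were summed over kept cells per line and time point and scaled to CPM. Fold changes used a pseudocount of 1 CPM, a minimum mean of 10 CPM and 1.5-fold, with Poisson, conditional ratio and Clopper-Pearson 95% intervals, which cover counting error only. Cells are not replicates, so no p-value was computed. Thinning to 10000 UMIs used seed 11. Noise was fitted with mgcv. Scripts were tested on simulated data (Python 3.11.15, numpy 2.4.6, scipy 1.17.1, pandas 2.3.3). Named genes were all members past 10 CPM in either line, the highest and lowest of each list at 8 h, PCNA, TOP2A, the 5 genes most like HIST1H4C, the 3 members under the minimum with the most UMIs per line, and members at least 0.322 (log2) from 0 in opposite directions. The UMI limits for high cells (3, 5 and 10), HIST1H2AA, HIST1H2AE and members at 0 in 1 line were chosen after values were seen. The members and lists were chosen with earlier results of these data known. Stem-loops came from GENCODE 44 transcripts, searched over the whole transcript and counted as its end within 20 bases of it, and promoters from RefSeq GRCh38.p14. Alternatives covered scaling, cell limits, minimum, fold, pseudocount and thinning.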

Additional observations from a re-analysis of the deposited data

Results flagged for a closer look

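HIST1H4C at 8 h was the 1 member at least 0.322 (log2) from 0 in opposite directions, with a log2 fold change of 0.46 in T-47D (9174 UMIs at 0 h, 4927 at 8 h) and −0.84 in Ishikawa (112 and 113 UMIs, under the 10 CPM minimum). The 2 highest Ishikawa cells held 45 and 21 of these UMIs at 0 h and 45 and 17 at 8 h, and without them the level was 3.01 and 1.65 CPM, so no direction is read from the Ishikawa value. The difference was not tested.

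Barcodes that the comparisons left out also held histone UMIs. The summed level was 531 CPM in Ishikawa doublet calls and 626 CPM in Ishikawa barcodes with no call, beside 598 CPM over all called barcodes. In T-47D it was 1096 and 932 CPM, beside 1201 CPM. T-47D barcodes with no call had a median of 7023.5 UMIs, and 25.9% had a HIST1H4C UMI, against 65.5% of called cells at a median of 21094 UMIs.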

How the results depend on the processing

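The summed totals lay near 0, and those of Ishikawa at 2 and 4 h and of T-47D at 4 and 8 h changed sign under some alternatives. The Ishikawa total at 2 h was 0.039 with TMM factors, 0.094 in cells with under 1% UMIs of the reporter GFP and −0.045 as a mean over cells. At 4 h it was 0.036 over every called barcode. At 8 h it was 0.19 over every called barcode, 0.010 with the lower upper UMI limit, 0.13 with under 1% GFP and 0.027 as a mean over cells. The T-47D total with the lower upper UMI limit was −0.043 at 2 h, −0.076 at 4 h and −0.042 at 8 h, and without HIST1H4C −0.073, −0.063 and −0.11. As a mean over cells it was 0.0088 at 8 h.

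With no minimum level, 1.5-fold was passed in Ishikawa by 2 members higher and 1 lower at 2 h, 2 lower at 4 h and 1 lower at 8 h, and in T-47D by 1 higher at 2 h and, at 8 h, by 2 higher and 1 lower. At a limit of 0.322 (log2), 2 were lower at 4 h and 1 higher at 8 h in Ishikawa, and 2 higher at 8 h in T-47D. With under 1% GFP, Ishikawa HIST1H4C passed the minimum and was 1 member higher at 2 h and 1 lower at 8 h. Of the 17 cells with 10 or more of its UMIs, 12 had under 1% GFP. These calls thus rest on few cells and no direction is read from them. The cause was not tested. Counts of High noise stayed within 1.5 times in thinned cells, 8 of 8. With Pearson's r on log values of unthinned cells in place of rho, 11 values with PCNA fell outside the range of rho over the time points and 16 did not, and 17 with TOP2A did and 10 did not. Alternatives added after seeing the data were the scalings and limits for single T-47D members and the bins of G2/M share with the lower upper UMI limit, where the top-to-bottom ratios were 21.0 for HIST1H4C, 41.9 for HIST1H1D and 7.23 for HIST1H1E in T-47D.

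No paired analysis was possible because each line and time point was 1 culture. Depth limits the members under 10 CPM, and poly(A) capture limits all of them. The line, library and culture cannot be told apart, and leaving out a replicate was not possible.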
